A study of Mus musculus with 6 samples.

Results

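Alternative exon ends are exons of one locus that share one edge and differ at the other. They were followed in 6 tumours that A375 cells, a human melanoma line, formed under the skin of BALB/c nude mice, hosts that lack mature T cells but keep other immune cells. The ZLD1039 group received ZLD1039, an inhibitor of the histone methyltransferase EZH2, at 100 mg/kg by oral gavage once a day, and the vehicle group received vehicle alone. All tumours carried the unaltered A375 genotype, labelled WT, and were taken on day 27, and 3 were sequenced in each group. The 2 groups held 5 mice each, and the labels do not state that each sequenced tumour came from a separate mouse. The p-values therefore refer to these tumours only. Those of limma, and its intervals, also draw on the spread of the other shares or events tested.

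The members were the exon-end events (event type AE) of one locus and strand that shared exactly one of their start and end positions. They formed 6956 groups of 2 or more ends in 4199 loci, and held 13905 of 17785 exon-end events, or 7.91% of the 175743 events of all kinds. The other 3880 exon-end events had no such partner in any tumour. Abundance was given as FPKM, a fragment count scaled by transcript length and library depth, and an event not listed in a tumour was taken as 0. The share of an end was its FPKM over the summed FPKM of its group in the same tumour.

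Splicing joins the donor site at the 3′ end of one exon to the acceptor site at the 5′ end of the next. Where 2 acceptors or 2 donors lie close together, the spliceosome can choose either one, and the exon gains or loses the bases between them. An offset that is a multiple of 3 keeps the reading frame inside a coding sequence, while any other offset shifts it. Tandem acceptors 3 bases apart, known as NAGNAG sites, are a common form in mammals and add or remove a single amino acid.

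The tumours listed similar numbers of members, 10081, 9666 and 10169 under ZLD1039 and 10248, 10026 and 10088 under vehicle, and 52.8% of the members were listed in all 6. The labels name the mouse and build mm10, but the locus identifiers are human Ensembl ones, chromosome numbers run to 22 and chromosome 1 reaches position 249214145, as in the human genome. Reads of the mouse host placed on those positions cannot be separated, and in bulk tumours fewer cells of a type and less RNA per cell cannot be told apart. The files pair no gene symbols with their identifiers, so melanoma markers were not examined here and exons are given by chromosome and position. No human genome was used here, and no sequence is shown. The number of sequenced fragments is unknown.

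Alternative 5′ ends outnumbered alternative 3′ ends. Of the 6956 groups, 4069 (58.5%) varied at the 5′ end of the exon, the acceptor side, and 2887 (41.5%) at the 3′ end, the donor side. Both strands carried each kind in like numbers, with 2035 groups on the plus and 2034 on the minus strand at 5′ ends and 1406 and 1481 at 3′ ends. Most groups, 6241, had 2 ends, and 715 had 3 to 6. Of the 4199 loci, 1053 held both kinds, 2648 held a single group, and the richest held 12. An end lay at a transcript start or end of the same locus in 148 groups.

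Offsets of 3 bases were found almost entirely at 5′ ends. Among groups of 2 ends it occurred in 55 of 3609 groups at 5′ ends (1.52%, 95% Wilson interval 1.17 to 1.98%) and in 1 of 2632 at 3′ ends (0.0380%, interval 0.00671 to 0.215%). The 55 groups lay on both strands, 25 on the plus and 30 on the minus strand. Wilson intervals here and below cover counting error only, and groups of one locus are not independent. In groups of 3 or more ends, 60 of 979 neighbouring pairs at 5′ ends were 3 bases apart, against 3 of 551 at 3′ ends.

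Other offsets below 10 bases were rare at both kinds of end. At 5′ ends 12 groups were 4 bases apart, 8 were 5 bases apart and 3 were 6 bases apart. At 3′ ends the most frequent offset below 10 was 4 bases, with 13 groups. From 10 bases upward counts were higher, with 25 groups at 5′ ends and 37 at 3′ ends for 10 bases. The single most frequent offset was 15 bases at both, with 74 and 58 groups. The median offset was 63 bases at 5′ ends and 98 bases at 3′ ends.

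**Figure D1:**
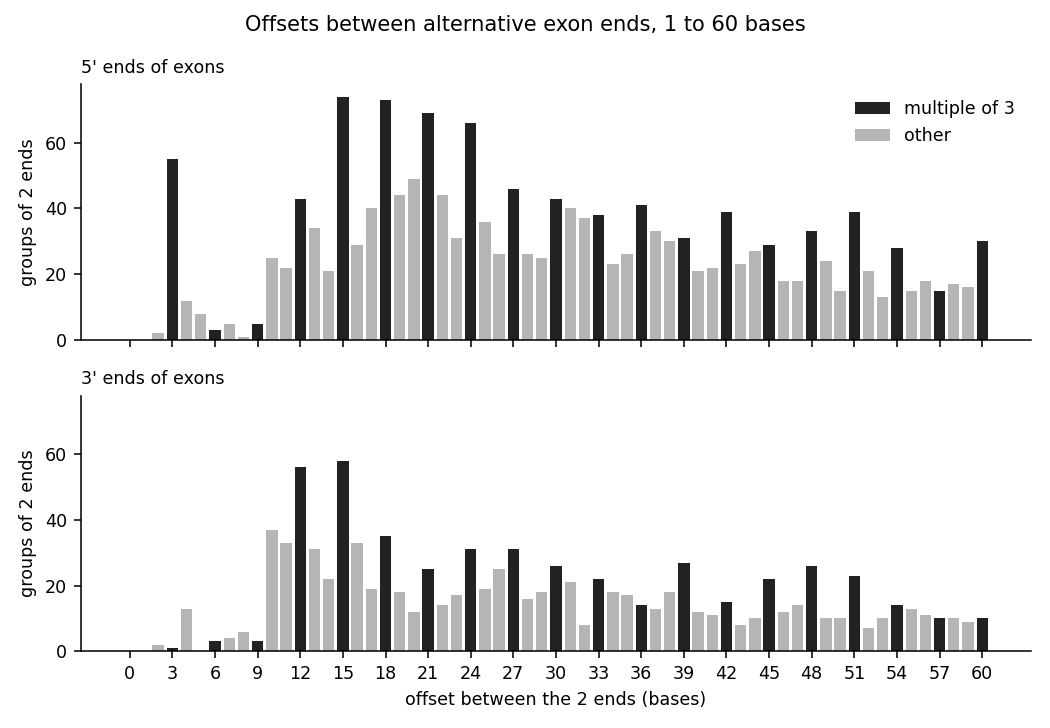
Number of groups of 2 ends (vertical axis) at each offset from 1 to 60 bases (horizontal axis), at 5′ ends (upper panel) and 3′ ends (lower panel) of exons; black bars are multiples of 3. The bar at 3 bases holds 55 groups at 5′ ends and 1 at 3′ ends, and black bars stand above most of their grey neighbours.

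Offsets that are multiples of 3 were over-represented relative to the 33.3% that an even spread over the 3 remainders would give. They made up 1505 of 3609 groups (41.7%, interval 40.1 to 43.3%) at 5′ ends and 1027 of 2632 (39.0%, interval 37.2 to 40.9%) at 3′ ends. The excess lay at short and middle offsets. At offsets of 13 to 30 bases the percentage was 47.8% at 5′ ends and 45.8% at 3′ ends. Over 300 bases it was 32.8% (interval 29.4 to 36.4%) and 33.0% (interval 29.7 to 36.5%), and both intervals hold 33.3%.

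In most groups one end carried nearly all of the abundance. Groups with a mean sum of at least 1 FPKM and a sum above 0 in every tumour were considered, 5125 of the 6241 with 2 ends. The end with the lower mean share, called the minor end, reached 10% in 776 of 3011 groups (25.8%) at 5′ ends and in 570 of 2114 (27.0%) at 3′ ends. It stayed below 1% in 30.3% and 28.8% of them. The leading end was the same in all 6 tumours in 4287 of the 5125 groups (83.6%), at nearly the same rate for 5′ ends (83.8%) and 3′ ends (83.4%).

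Ends 3 bases apart both reached a mean share of 10% more often than ends farther apart. At 5′ ends the minor end reached 10% in 27 of 40 groups with a 3-base offset (67.5%, interval 52.0 to 79.9%). With other multiples of 3 it did so in 27.2% of 1233 groups (interval 24.8 to 29.7%), and with the remaining offsets in 23.8% of 1738 (interval 21.9 to 25.9%). The minor end is set by the mean over tumours, so it can also reach 10% where the lead changes between tumours. The leading end was the same in all 6 tumours in 26 of the 40 groups, against 83.6% of the 5125 groups of all offsets. The longer exon led in 20 of the 40 groups. Its mean share over the 6 tumours ran from 0.0203% to 99.9994%, with a median of 53.99%.

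The following are the 3 most abundant groups with a 3-base offset among those whose minor end reached 10%, so that use of both ends was a condition of the choice. On chromosome 12 (95869847 to 95869954 for the longer exon, plus strand), the longer exon had 54.4, 58.2 and 36.3% of the group in the ZLD1039 tumours and 48.8, 44.9 and 51.7% in the vehicle tumours. The tumours of the groups overlap, and both forms were well represented in each. This group has an end at a transcript start or end of its locus. On chromosome 5 (134696187 to 134696297, minus strand) the longer exon had 30.5, 27.7 and 4.87% under ZLD1039 and 14.1, 32.7 and 29.8% under vehicle, so that the shorter exon led throughout. On chromosome 19 (18649026 to 18649246, minus strand) it had 47.3, 64.3 and 38.4% under ZLD1039 and 78.2, 43.5 and 81.1% under vehicle, and the lead changed between tumours of the same group.

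Over all offsets at 3′ ends, both ends were used more often where the offset keeps the reading frame. The minor end reached 10% in 272 of 846 groups with an offset that is a multiple of 3 (32.2%, interval 29.1 to 35.4%) and in 298 of 1268 other groups (23.5%, interval 21.3 to 25.9%). By offset range, it did so at 3′ ends in 39.2% of 51 groups at multiples of 3 against 40.3% of 72 others for 1 to 12 bases, where there was no gap. The other ranges gave 36.0% of 172 against 21.6% of 194 for 13 to 30 bases, 31.3% of 265 against 20.1% of 333 for 31 to 100, 27.5% of 167 against 22.1% of 298 above 100 and up to 300, and 31.9% of 191 against 25.3% of 371 beyond. Intervals of the pair did not overlap at 13 to 30 and at 31 to 100 bases, and overlapped in the other ranges.

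At 5′ ends the widest gap lay at 1 to 12 bases, with 52.9% of 87 against 29.0% of 62 groups, and without the 3-base groups 40.4% of 47, an interval (27.6 to 54.7%) that overlaps that of the others (19.2 to 41.3%). The next ranges gave 25.3% of 316 against 23.1% of 342 for 13 to 30 bases and 26.5% of 461 against 24.4% of 655 for 31 to 100. Above 100 and up to 300 bases it was 32.1% of 234 against 24.5% of 314, and beyond 300 bases 22.3% of 175 against 21.9% of 365. Intervals of the pair overlapped in every range but the first. Whether the gap differs between 5′ and 3′ ends was not tested. In each tumour the lower share of every group was also averaged, so that the exon counted could differ between tumours. This used the groups whose longer exon was tested below for a changed share, 2100 at 5′ ends and 1506 at 3′ ends. The 3-base groups were among those at 5′ ends. The mean lower share was higher at multiples of 3 in 6 of 6 tumours at both kinds of end. The same groups were averaged in every tumour, so this count and the SDs that follow do not measure the spread between groups. At 3′ ends the excess was 2.09 ± 0.92 percentage points under ZLD1039 and 2.07 ± 0.84 under vehicle (SD, n = 3, exact two-sided permutation p = 1.0), and at 5′ ends 1.43 ± 0.24 and 1.19 ± 0.32 (exact p = 0.3).

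Which form led depended on the size of the offset. The longer exon carried over 50% in 57.1% of groups at 5′ ends and 51.7% at 3′ ends for offsets of 31 to 100 bases. For offsets over 300 bases it led in only 34 of 540 groups (6.30%, interval 4.54 to 8.67%) at 5′ ends and 63 of 562 (11.2%, interval 8.86 to 14.1%) at 3′ ends. At offsets of up to 12 bases the 2 kinds of end lay apart. The longer exon led in 94 of 149 groups (63.1%, interval 55.1 to 70.4%) at 5′ ends and in 46 of 123 (37.4%, interval 29.4 to 46.2%) at 3′ ends. Without the groups 3 bases apart the values were 67.9% of 109 and 37.4% of 123.

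**Figure D2:**
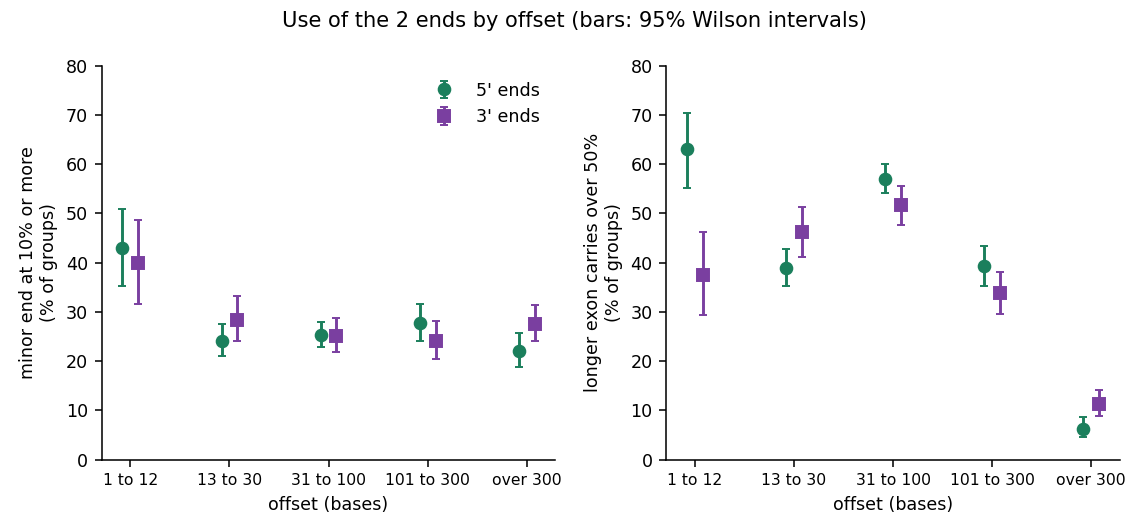
Percentage of 2-end groups whose minor end reached a mean share of 10% (left) and whose longer exon carried over 50% (right), by offset in bases; circles are 5′ ends, squares 3′ ends, and bars 95% Wilson intervals. Both ends were used most often at offsets of up to 12 bases, and the longer exon led least often over 300 bases, in 6.30% of groups at 5′ and 11.2% at 3′ ends.

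Exons with larger offsets were likewise chosen as the most abundant among groups whose minor end reached 10%, so that a mixture of forms was a condition. Within it, several varied little between tumours. On chromosome 1 a pair of neighbouring exons of one locus each had 2 acceptors. At the first (67889883 to 67890005, minus strand, offset 45 bases) the longer exon had 58.4, 59.8 and 55.7% under ZLD1039 and 58.7, 56.3 and 59.7% under vehicle, of group sums between 219.7 and 249.4 FPKM. At the second (67890571 to 67890660, offset 18 bases) it had 63.0, 62.8 and 70.6% under ZLD1039 and 60.5, 71.0 and 61.03% under vehicle. Both sets of tumours overlap. A donor pair on chromosome 6 (34208514 to 34208692, plus strand, offset 33 bases) gave the longer exon 78.0, 78.4 and 77.3% under ZLD1039 and 76.2, 73.2 and 67.8% under vehicle. These do not overlap, but the difference of 5.48 points had an interval of -12.5 to 23.5 (limma, adjusted p = 0.78). That interval draws on the spread of other shares too. The SD of this share was 0.57 points under ZLD1039 and 4.23 points under vehicle, and limma's standard error was 7.51. At a further donor pair on chromosome 6 (35436724 to 35437062, plus strand, offset 258 bases) the longer exon had 11.2, 18.0 and 12.8% under ZLD1039 and 19.0, 20.5 and 17.7% under vehicle, with 1 overlapping tumour on each side. Another donor pair on chromosome 6 (133136111 to 133136363, plus strand, offset 136 bases) gave the longer exon 22.9, 20.6 and 19.4% under ZLD1039 and 21.4, 23.4 and 23.2% under vehicle.

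Other exons of that choice changed their form from tumour to tumour. At a donor pair on chromosome 12 (120636657 to 120636803, minus strand, offset 41 bases) the longer exon had 62.1, 66.4 and 94.6% under ZLD1039 and 99.03, 99.8 and 39.4% under vehicle. At another exon of that locus (120638522 to 120638634, offset 11 bases) it had 8.35, 12.5 and 34.9% under ZLD1039 and 30.6, 18.4 and 13.3% under vehicle. At an acceptor pair on chromosome 11 (122931828 to 122932037, minus strand, offset 71 bases) the longer exon held 100, 100 and 98.4% under ZLD1039 and 60.4, 100 and 56.3% under vehicle, and vehicle tumour 2 lay with the ZLD1039 tumours. At an acceptor pair on chromosome 19 (58898399 to 58898706, plus strand, offset 150 bases) the shorter exon was listed only in ZLD1039 tumour 1, with 60.04% of 503.9 FPKM. At an acceptor pair on chromosome 15 (69745986 to 69747626, plus strand, offset 1523 bases) the longer exon had 7.74, 7.27 and 28.8% under ZLD1039 and 31.01, 8.13 and 7.85% under vehicle. At a donor pair on chromosome 19 (10505904 to 10506219, minus strand, offset 207 bases) the longer exon had 2.93, 8.08 and 0.524% under ZLD1039 and 7.16, 56.05 and 2.98% under vehicle. A single tumour of either group stood apart at several of these exons.

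The spread of the shares was of the same size within and between treatments. Over 5132 tested shares, any pair of tumours of one group differed by 13.8 percentage points on average, and any pair from different groups by 13.8 points. ZLD1039 tumour 2 had the widest mean distance to the other 5, 14.1 points, and vehicle tumour 2 the narrowest, 13.5. The spread fell with abundance: the median SD within a group was 14.8 points for group sums of 1 to 5 FPKM, 7.36 points for 5 to 20 FPKM and 5.81 points for 20 to 100 FPKM.

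No exon end passed the test for a changed share between ZLD1039 and vehicle tumours. The test asks whether EZH2 inhibition goes with another choice of splice site. It covered 1 share for each of 3606 groups of 2 ends, that of the longer exon, and 1526 shares in 552 larger groups, all with a mean share over 1% and under 99%. None of the 5132 shares (0.0%) passed an adjusted p of 0.05 (limma with Benjamini-Hochberg adjustment, smallest adjusted p = 0.72). Before adjustment, 114 (2.22%) lay under 0.05, 74 of 3111 at 5′ ends and 40 of 2021 at 3′ ends. The count was also 0 on a log2 ratio scale (smallest adjusted p = 0.15) and without limma's mean-variance trend (smallest adjusted p = 0.075). The median 95% interval of a difference reached 17.1 points on either side. Larger differences did not pass either, since 698 shares differed by over 20 points and none was called. On simulated data with known changes, the fit with the trend found few of them, and the fit without it found more. A count of 0 therefore does not show that shares were equal.

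Tumours of the groups did not overlap at 343 of the 5132 shares (6.68%), with 169 higher (3.29%) and 174 lower (3.39%) under ZLD1039. This applied to 6.91% of shares at 5′ ends and 6.33% at 3′ ends. Among the 40 groups with a 3-base offset that passed the limits on the group sum it applied to 5. In the 35 of them that were tested the longer exon was higher under ZLD1039 in 13. In 12 of the 5125 groups of 2 ends (0.234%) one end led in all ZLD1039 tumours and the other in all vehicle tumours, 6 towards the longer and 6 towards the shorter exon under ZLD1039.

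**Figure D3:**
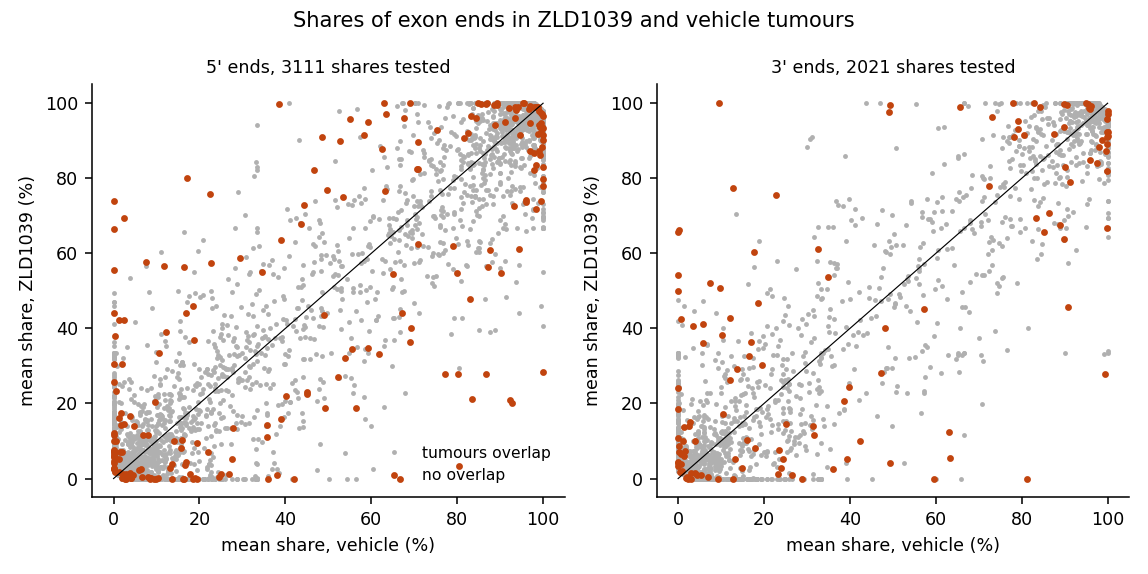
Mean share of each tested exon end in 3 ZLD1039 tumours (vertical axis, %) against 3 vehicle tumours (horizontal axis, %), at 5′ ends (left, 3111 shares) and 3′ ends (right, 2021); red points are shares whose tumours do not overlap, and the line marks equal shares. Points scatter on both sides of the line, and 343 of 5132 do not overlap.

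Of 1335 tested groups of 2 ends with a sum of at least 10 FPKM, 95 did not overlap. Over all tested shares it was 343 of 5132 (6.68%). The following exons had the largest differences among those 95 groups, and were picked for that difference. On chromosome 16 (2256032 to 2256215, plus strand, offset 30 bases) the longer exon, made with the upstream acceptor, had 11.4, 30.4 and 21.1% under ZLD1039 and 77.1, 99.9 and 99.7% under vehicle. The difference was -71.3 points (interval -109 to -33.1, limma, adjusted p = 0.72), and the group sums were 20.7, 27.3 and 22.3 FPKM under ZLD1039 and 20.6, 14.0 and 16.7 FPKM under vehicle, each ZLD1039 tumour above each vehicle tumour. At another acceptor pair of chromosome 16 (67863668 to 67864451, minus strand, offset 460 bases) the longer exon had 57.2, 16.4 and 9.68% under ZLD1039 and 80.8, 79.8 and 99.7% under vehicle. A donor pair on chromosome 22 (38228965 to 38229213, minus strand, offset 201 bases) gave the longer exon 0, 36.9 and 0% under ZLD1039 and 73.0, 51.8 and 64.4% under vehicle.

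In the other direction, a donor pair on chromosome 16 (89755660 to 89755732, plus strand, offset 18 bases) gave the longer exon 98.9, 100 and 93.7% under ZLD1039 and 59.8, 37.6 and 49.6% under vehicle. Its difference was 48.5 points (interval 25.8 to 71.3, limma, adjusted p = 0.72). A donor pair on chromosome 19 (50306544 to 50308833, plus strand, offset 2123 bases) gave the longer exon 32.2, 100 and 100% under ZLD1039 and 17.6, 20.7 and 0% under vehicle. An acceptor pair on chromosome 8 (101733619 to 101733847, minus strand, offset 167 bases) gave it 100, 100 and 21.5% under ZLD1039 and 0% in each vehicle tumour. Its group sum was 7.43 FPKM in ZLD1039 tumour 1, against 194.6 to 280.3 FPKM in the other 5 tumours. None of these 6 differences passed the test over all shares.

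Mean shares of the longer exon lay within 1 percentage point of each other under both treatments. At 5′ ends the longer exon held 40.9 ± 0.46% in ZLD1039 tumours and 41.6 ± 0.48% in vehicle tumours (SD, n = 3, mean over 2100 groups, exact two-sided permutation p = 0.2). At 3′ ends it held 36.5 ± 0.35% and 36.6 ± 0.89% (1506 groups, exact p = 1.0). Groups 3 bases apart at 5′ ends averaged 51.3 ± 4.85% under ZLD1039 and 50.8 ± 3.05% under vehicle (35 groups, exact p = 0.8). The tumours separated in 1 class, the other multiples of 3 at 5′ ends. There the longer exon held 44.0, 43.3 and 44.0% under ZLD1039 and 45.3, 44.5 and 44.2% under vehicle, a difference of -0.90 points over 866 groups (exact p = 0.1, the smallest that 3 against 3 tumours allow, adjusted p = 0.7 over 7 classes). That difference shrank to -0.037 points in groups with a sum of at least 5 FPKM and to -0.069 points when groups were weighted by their sum. The class of 3-base offsets at 3′ ends held a single group and was not tested.

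**Figure D4:**
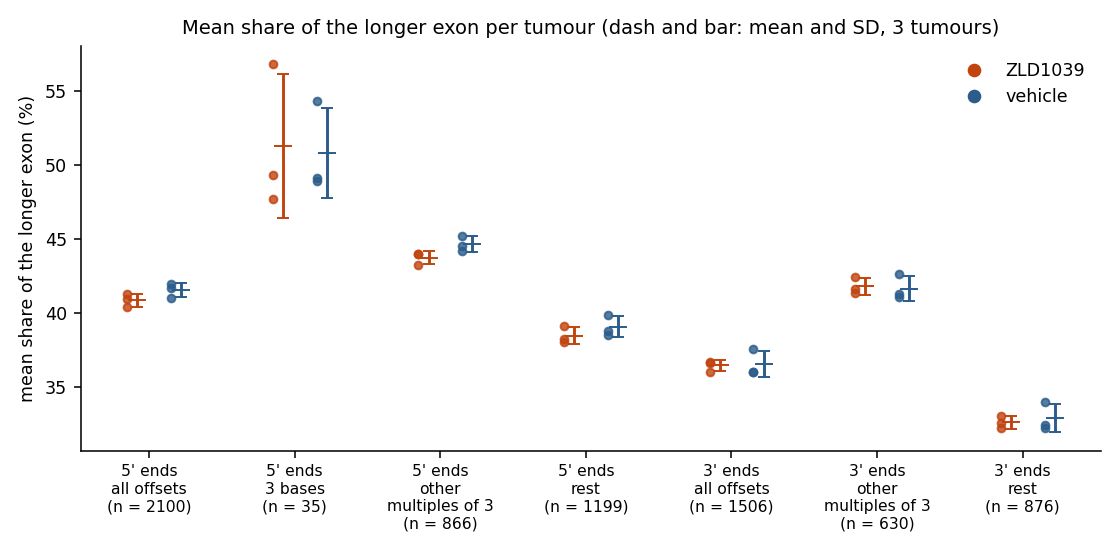
Mean share of the longer exon (vertical axis, %, not starting at 0) in each tumour by kind of end and offset class; red points are ZLD1039 tumours, blue points vehicle tumours, and dashes with bars the mean and SD of 3 tumours. Treatments lie close together in every class, while classes differ, from 32.6% under ZLD1039 for the remaining offsets at 3′ ends to 51.3% for 3-base offsets at 5′ ends.

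In absolute abundance 3 members differed between the treatments. Among the 7666 members whose mean reached 1 FPKM under either treatment, 3 rose (0.0391%) and none fell under ZLD1039 (limma on log2(FPKM + 1), Benjamini-Hochberg adjusted over all 82894 tested events). These 3 reached 1 FPKM only under ZLD1039, and so entered the test through the group where they were high. Without that filter no member was called (limma, smallest adjusted p = 0.0503). Among all events 30 were called (0.0362%), 22 higher (0.0265%) and 8 lower (0.00965%), so the members' share was near that of the whole table. The other 6239 members did not reach 1 FPKM in either group. Before adjustment, p lay under 0.05 for 5.26% of the members and 4.70% of all events, and the median log2 difference was 0.0099 and 0.014.

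All 3 were ends on the donor side. The first lay on chromosome 8 in the locus ENSG00000176853 (exon 124796710 to 124796816, plus strand). Its abundance was 15.03, 18.3 and 18.7 FPKM under ZLD1039, and no vehicle tumour listed it (limma, adjusted p = 0.0094). The exon form that is 68 bases shorter was listed only in vehicle tumour 2, at 6.84 FPKM. Neither form was listed in vehicle tumours 1 and 3, although the locus itself reached 15.2 and 11.4 FPKM there. Over all tumours the locus had 18.0 ± 1.82 FPKM under ZLD1039 and 12.5 ± 2.37 FPKM under vehicle (SD, n = 3).

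The second lay on chromosome 1 in the locus ENSG00000143493 (exon 212125953 to 212126043, minus strand). It had 7.65, 8.06 and 8.35 FPKM under ZLD1039 and was listed in no vehicle tumour (limma, adjusted p = 0.030). A form 42 bases longer had 2.27 FPKM in ZLD1039 tumour 3 and 2.69 and 2.96 FPKM in vehicle tumours 1 and 3. A form of 1039 bases was listed only in vehicle tumour 1, at 2.66 FPKM. The locus as a whole stood at 12.7 ± 1.01 FPKM under ZLD1039 and 11.3 ± 0.49 FPKM under vehicle (SD, n = 3).

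The last, also on chromosome 1 (exon 1328059 to 1328183, minus strand), had 10.9, 8.43 and 7.27 FPKM under ZLD1039 and 0.00172, 0.00194 and 0.00157 FPKM under vehicle. The log2 difference on the log2(FPKM + 1) scale was 3.28 ± 0.27 (standard error, limma, adjusted p = 0.032). Its locus was far more abundant, at 75.7 ± 8.6 FPKM under ZLD1039 and 66.4 ± 8.31 FPKM under vehicle (SD, n = 3). The group of this exon held 1 other form, 1913 bases longer and listed only in ZLD1039 tumour 1.

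These calls were lost when single tumours were left out, while the log2 differences stayed between 4.14 and 4.29 on chromosome 8, between 3.15 and 3.20 for the second member and between 3.14 and 3.40 for the last. Both members on chromosome 1 lost theirs when any 1 of the 6 tumours was left out, with adjusted p between 0.079 and 0.13 for the second and between 0.093 and 0.14 for the last (limma). The member on chromosome 8 lost its call without ZLD1039 tumour 2 (adjusted p = 0.060), ZLD1039 tumour 3 (0.065) or vehicle tumour 3 (0.061). The count of called members was 1 without ZLD1039 tumour 1, 0 without ZLD1039 tumour 2 and 0 without vehicle tumour 3. Without ZLD1039 tumour 3 it was 2, both lower under ZLD1039 and neither among the 3. Without vehicle tumour 1 it was 2 and without vehicle tumour 2 it was 3, each with 1 of the 3 among them.

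Next to the threshold lay 2 further donor ends, named here after their values were seen. On chromosome 17 (37863243 to 37863457, plus strand) the longer exon was listed in no ZLD1039 tumour and had 4.99, 6.04 and 5.88 FPKM under vehicle (limma, adjusted p = 0.066). The form 63 bases shorter had 7.33, 10.4 and 9.01 FPKM under ZLD1039 and 1.15, 2.88 and 0.316 FPKM under vehicle. The group sum was 7.33, 10.4 and 9.01 FPKM under ZLD1039 and 6.14, 8.92 and 6.19 FPKM under vehicle, and the share of the longer exon was 0% under ZLD1039 and 81.3 ± 13.6% under vehicle (SD, n = 3).

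On chromosome 1 (40030143 to 40030214, minus strand) the shorter exon had 50.3, 19.5 and 13.2 FPKM under ZLD1039 and at most 0.0150 FPKM under vehicle (limma, adjusted p = 0.066). The exon 48 bases longer was level, with 48.1, 45.9 and 57.0 FPKM under ZLD1039 and 53.8, 42.6 and 53.8 FPKM under vehicle (log2 difference 0.01, limma, adjusted p = 0.995). Both forms were listed in every tumour. The shorter was higher in each ZLD1039 tumour than in any vehicle tumour, and the longer overlapped between the groups.

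**Figure D5:**
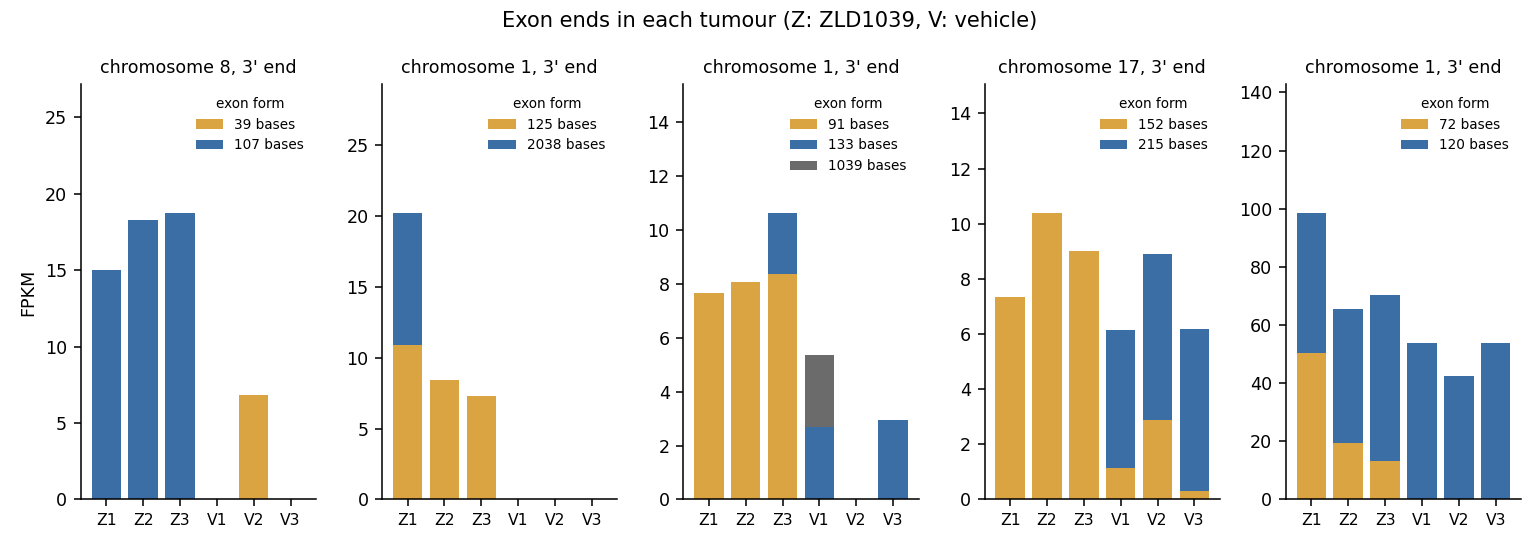
FPKM (vertical axis, one scale per panel) of each exon form in the 3 ZLD1039 tumours (Z1 to Z3) and 3 vehicle tumours (V1 to V3), stacked by form and named by exon length in bases. The first 3 panels hold the 3 members that rose under ZLD1039, and the last 2 hold the members next to the threshold, on chromosome 17 and chromosome 1.

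Groups with 3 or more ends were also led by one end. The leading end held 84.8, 86.9 and 85.7% of the group under ZLD1039 and 85.6, 87.4 and 87.2% under vehicle, on average over 413 groups at 5′ ends. At 3′ ends it held 86.6, 87.6 and 85.8% under ZLD1039 and 85.0, 87.1 and 87.9% under vehicle over 205 groups. At least 3 ends reached a mean share of 10% in 45 groups (10.9%) at 5′ ends and 37 (18.0%) at 3′ ends.

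The largest groups had 6 ends, 1 group at 5′ and 1 at 3′ ends. The first, on chromosome 1 with the shared position 18268 (minus strand), held exons of 99 to 6624 bases. Its shortest form had 68.9, 44.9 and 36.5% under ZLD1039 and 48.7, 44.3 and 8.75% under vehicle, and the form 3 bases longer was listed in 1 tumour of each group. The second, on chromosome 7 with the shared position 44118410 (minus strand), held exons of 56 to 4681 bases. Its 72-base form led in all tumours, with 37.3, 83.4 and 70.4% under ZLD1039 and 88.3, 63.9 and 67.6% under vehicle. Of its 6 forms, 3 were each listed in a single tumour.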

How the data were processed

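RNA from 6 A375 xenograft tumours was analysed, 3 given ZLD1039 and 3 given vehicle, grouped by sample title. Messenger RNA was taken up on beads before SMARTer library preparation, per the labels' protocols. For each tumour the authors deposited a list of transcript events in FPKM, per the file headers. HTSeq 0.6.1, bcl2fastq 2.17.1.14 and build mm10 appear in the submitters' processing notes. Names of the aligner, assembler and event caller were not given in the sources used here. FPKM values carry no count, so depth and counting error are unknown and no count model was used.

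Rows with one event identifier were taken once, and unlisted events as 0. R 4.3.3 and limma 3.58.1 served to test shares in percent and log2(FPKM + 1), with a mean-variance trend, no block and Benjamini-Hochberg adjustment at 0.05. Shares were adjusted over 5132 rows and abundance over 82894 events. Means per tumour were compared by exact permutation tests with scipy 1.17.1. Both fits were tested on simulated data. There the share fit with the trend found few changes, and the fit without it found more, which is why both are given.

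Named exons were those called, the 3 most abundant groups of each class with a minor end of at least 10%, the 6 largest non-overlapping differences at 10 FPKM or more, and the groups with most ends; 2 donor ends next to the threshold were added after their values were seen. The planned lists of named genes were left out, since no human symbols were paired with the identifiers. Members, lists and tests were chosen with earlier results of these data known.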

Additional observations from a re-analysis of the deposited data

How the results depend on the processing

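The count of 0 changed shares was 0 in each of 14 alternatives, among them each tumour left out in turn (0 to 0). All but the fit without the trend kept the trend, and on simulated data the share fit with the trend found few changes. These counts of 0 therefore do not show that shares were equal. The 3 changed events became 0 with a replicate block and without a filter on low values, 2 with a pseudocount of 0.1 (1 of them among the 3), 8 without the trend and 5 when the threshold was 0.10, and 0 to 3 with 1 tumour left out. With median-of-ratios scaling it was 3. The cause was not tested. The log2 differences of the 3 kept their sign in 11 alternatives each, which follows from groups that do not overlap. The difference in mean share of the longer exon at 5′ ends moved from -0.70 to 0.30 points for all offsets, from -0.90 to -0.069 for other multiples of 3 and from -0.59 to 0.77 for the remaining offsets when groups were weighted by their sum. With a group sum of at least 5 FPKM these were 0.020, -0.037 and 0.062. With 1 tumour left out they were -0.98 to -0.43, -1.17 to -0.57 and -0.95 to -0.25. The other 4 classes moved by less than 1 pooled SD in 12 alternatives each, and their sign differed in 3 to 7. Both groups carry the replicate numbers 1 to 3, but same-numbered tumours did not deviate together (correlations of -0.0325 to 0.0142 over shares and -0.0552 to -0.00704 over events). With the replicate block 0 shares and 0 member events were called, and the difference at 5′ ends stayed at -0.70 (exact sign-flip p = 0.25, the smallest that 3 pairs allow). Unknown depth and 3 tumours a group limit what could be found.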
